A study of Homo sapiens with 6 samples.

Results

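Integrins are paired α and β subunits that span the cell membrane and hold cells to the extracellular matrix, and the laminins and fibronectin are matrix proteins that they bind. ITGAV encodes the α subunit of the fibronectin and vitronectin receptors, which also release active TGF-β from its latent complex. ITGA1 encodes the α subunit of a receptor for collagen and laminin, LAMA3 an α chain of the laminins under epithelia, and FN1 fibronectin. In colon epithelium and in tumours derived from it, such receptors and ligands anchor cells to the basement membrane and take part in spreading and migration.

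These 4 genes were followed in HCT116, a cell line established from a human colon carcinoma. The tested cells carried shERRα, a lentiviral short hairpin RNA against the orphan nuclear receptor ERRα (gene ESRRA), and the controls carried shscrambled, a scrambled hairpin. Both groups were infected for 48 h and then held in puromycin for 48 h, in medium with 10% serum. Each group has 3 arrays of total RNA, called biological replicates in the labels, on an Affymetrix whole-transcript platform. The labels do not say whether the replicates came from separate infections, and a single shRNA name is given, so effects of that hairpin other than loss of ERRα cannot be told apart from it.

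The 4 genes are represented by 204 probe sets of 257430 on the array: 33 for ITGAV, 35 for ITGA1, 78 for LAMA3 and 58 for FN1. A probe set is a small group of probes with 1 value per array, in log2 units. Of the 204, 10 carry the gene's name in the authors' deposited comparison, a list of those that differed at least 2-fold with a p under 0.01 before any adjustment. The other 194 were taken because their identifiers run on from these without a gap, and whether each of these reads the gene is not stated. The members were therefore chosen on measured values of shERRα against shscrambled, and all their values in this contrast are given as a description. Listed probe sets numbered 5 for ITGAV, 1 for ITGA1, 3 for LAMA3 and 1 for FN1, and all 10 were lower in shERRα. Over all 257408 probe sets with a settled value, 0.554% were past the same rule as lower and 0.27% as higher.

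ERRα binds DNA at the letters TNAAGGTCA, with AAGGTCA as its core, which is why the promoters were searched for these letters. The RefSeq promoter table of build GRCh38.p14 holds windows for 4 of the 4 genes, and the 250 bases before each start were searched on both strands. The only window of LAMA3 lies at a start inside the gene, so its outer start was not searched. Further motifs were the AP-1 site TGANTCA, the cAMP response element TGACGTCA and the TATA box TATAAG; the core lies within the full ERR site and the other motifs do not contain one another. Stretches with a match are shown because they differ in which motif they hold, from 25 bases before the first match to the base before the start, 5′ to 3′ on the strand of the gene, with the matches in capitals.
ITGAV, a start inside the annotated gene, chr2:186600128-186600204, plus strand: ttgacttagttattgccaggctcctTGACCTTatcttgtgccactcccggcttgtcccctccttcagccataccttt
LAMA3, a start inside the annotated gene, chr18:23872870-23873019, plus strand: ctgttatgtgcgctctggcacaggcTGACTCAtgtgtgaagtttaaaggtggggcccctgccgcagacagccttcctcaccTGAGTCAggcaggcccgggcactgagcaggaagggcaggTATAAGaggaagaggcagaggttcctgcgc
FN1, chr2:215436069-215436276, minus strand: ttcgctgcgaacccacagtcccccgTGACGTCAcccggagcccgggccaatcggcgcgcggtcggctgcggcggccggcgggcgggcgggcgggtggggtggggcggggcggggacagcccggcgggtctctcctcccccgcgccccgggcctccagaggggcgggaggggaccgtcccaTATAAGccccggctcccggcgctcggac

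The core of the ERR site appeared once, on the opposite strand, at positions -52 to -46 relative to the inner start of ITGAV. The core was present in 3.44% and the full ERR site in 0.854% of the 35116 promoters of the table. LAMA3 held the AP-1 site at positions -125 to -119 and -69 to -63 relative to its inner start, and a TATA box at -30 to -25. The AP-1 site was present in 6.57% of promoters. FN1 held a cAMP response element at positions -183 to -176 relative to its start, present in 1.65% of promoters, and a TATA box at -28 to -23, present in 5.03%. The window at the outer start of ITGAV and that of ITGA1 held none of these letters. A match describes the letters and does not show binding, and no data on binding were analysed here.

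shERRα replicate 1 stood apart from the other arrays. It correlated with the remaining 5 arrays at 0.862 to 0.872 over all probe sets, against 0.932 to 0.946 among those 5. Array medians lay between 4.25 and 4.44 log2 units. ESRRA, the target of the hairpin, averaged 2.38 ± 0.20 in shERRα and 5.08 ± 0.21 in shscrambled (log2 units, SD, n = 3 each) at its 2 listed probe sets. Its run of 6 differed by -1.84 in the median per array, but the median of the 6 differences was -0.81. The 4 unlisted probe sets, as a median per array, differed by -0.27 with overlapping groups, and the 2 brightest, 7940990 and 7940993, were higher in shERRα (0.30 and 0.17). No probe set and no run passed an adjusted p of 0.05 in limma (0% of 257408 probe sets and 0% of 19186 runs). At an unadjusted p under 0.05, limma gave 18507 probe sets and 2049 runs, and an equal-variance test gave 0 probe sets after adjustment.

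ITGAV was lower in shERRα over its whole run. Its run median per array was 5.16, 6.54 and 6.12 log2 units in shERRα replicates 1 to 3 and 6.77, 6.97 and 7.11 in shscrambled replicates 1 to 3. The groups did not overlap, and shERRα replicate 1 was the lowest array. The difference of the means was -1.01 log2 units (SE 0.33, limma), or 2.01-fold lower. Without shERRα replicate 1 the difference was -0.62. In these bulk RNA samples, fewer expressing cells and less RNA per cell cannot be told apart. Groups did not overlap, with shERRα lower, for 10.6% of all 19186 runs of at least 3 probe sets, and 297 of them had a difference at or below that of ITGAV. The members of the run were picked around listed probe sets, so nothing is read from this.

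All 33 ITGAV probe sets had a lower mean in shERRα, by differences between -2.60 and -0.27 log2 units, with 20 at least 2-fold lower. Among all 257408 probe sets 50.3% were lower and 18294 at least 2-fold lower. For 22 of the 33 no shERRα array reached the lowest shscrambled array, against 8.39% of all probe sets. This held for 17 of the 28 unlisted ITGAV probe sets. shERRα replicate 1 lay below every shscrambled array at 32 of the 33, replicate 2 at 27 and replicate 3 at 25. Without shERRα replicate 1, 30 of the 33 were lower and 23 did not overlap, where 13.4% of all probe sets did not overlap.

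Of the 5 listed ITGAV probe sets, 8046891 measured 8.63, 8.79 and 8.26 log2 units in shERRα and 9.66, 9.87 and 9.95 in shscrambled. Probe set 8046892 measured 8.88, 8.72 and 8.22 in shERRα and 9.65, 9.97 and 9.68 in shscrambled. Probe set 8046870 measured 7.61, 8.05 and 7.84 in shERRα and 8.85, 8.95 and 9.14 in shscrambled. These 3 were bright in both groups. At each of the 5, all selected on this contrast, every shERRα array lay below every shscrambled array. Probe set 8046882 measured 7.21, 7.21 and 7.40 in shERRα and 8.66, 8.43 and 8.51 in shscrambled. Probe set 8046881 measured 4.28, 4.74 and 4.97 in shERRα and 5.98, 6.08 and 6.17 in shscrambled. The 5 differences spanned a narrow range, -1.41 to -1.14 log2 units, with shERRα replicate 1 lowest at 2 of the 5. With an array left out in turn, 2 to 4 of the 5 stayed past the authors' rule. Outside the list, the lowest differences were at 8046880 (-2.60), 8046862 (-2.02) and 8046894 (-1.93). At 8046880 shERRα replicate 1 measured 1.54 log2 units, with 4.74 and 4.59 in replicates 2 and 3 and 5.98, 6.46 and 6.21 in shscrambled. The differences nearest 0 were at 8046878 (-0.27), 8046889 (-0.50) and 8046879 (-0.53), and the groups overlapped at each.

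**Figure D1:**
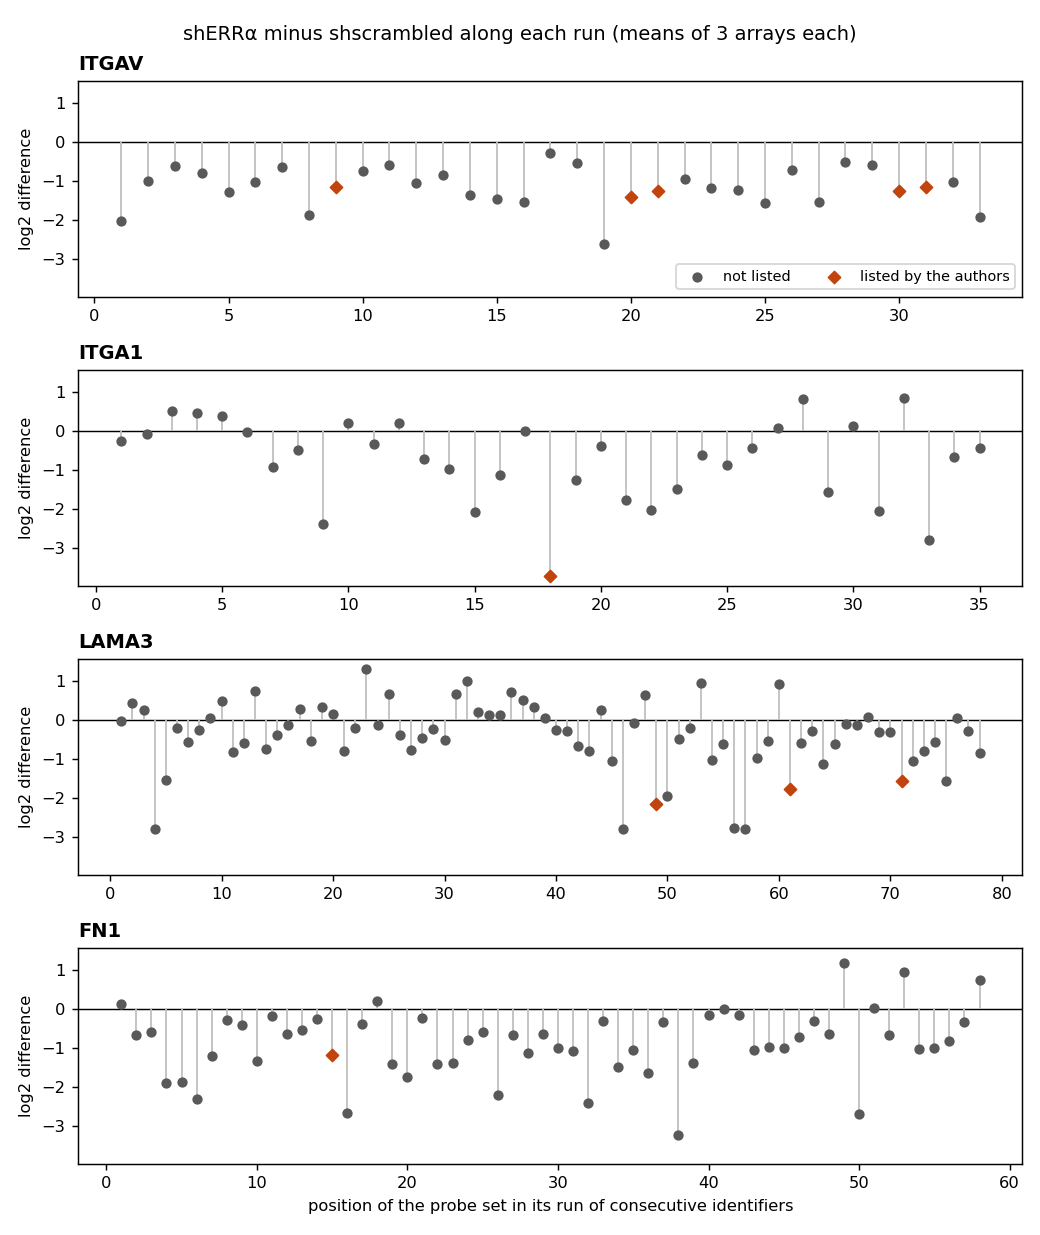
Difference of means in log2 units (shERRα minus shscrambled, 3 arrays each; y axis) for each probe set in the order of its identifier within its run (x axis), for ITGAV, ITGA1, LAMA3 and FN1. Diamonds are the 10 probe sets listed by the authors; all 33 ITGAV points lie below 0, 52 of 58 FN1 points do, and the LAMA3 points are mixed among the first 39 and mostly lower among the last 39.

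ITGA1, the collagen and laminin receptor subunit, was lower in shERRα as a run, but its probe sets were dim and uneven. Its run median per array was 2.34, 3.07 and 2.43 log2 units in shERRα and 3.58, 3.62 and 4.14 in shscrambled. The groups did not overlap, and the difference was -1.17 log2 units (SE 0.27, limma), or 2.25-fold lower, with 153 of 19186 runs at or below it. The mean over the run in place of the median gave -0.73, and the median of the 35 differences of single probe sets was -0.49. Of 35 probe sets, 14 had a mean over all arrays under 2.42 log2 units, the 25th percentile of all probe sets. Such a level is called near background here, although background itself was not measured. Of the 35, 25 were lower in shERRα and 10 higher, where 50.3% of all probe sets were lower. No overlap was found for 5 on the lower side and for 2 on the higher side (8105234 and 8105261). Among all probe sets these shares were 8.39% on the lower side and 5.68% on the higher. Of the 34 unlisted ITGA1 probe sets 4 did not overlap on the lower side (11.8%). Leaving out shERRα replicate 1 gave 9 of the 35 on the lower side, against 13.4% of all probe sets.

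The listed ITGA1 probe set, 8105247, measured 1.05, 0.98 and 1.13 log2 units in shERRα and 4.59, 4.33 and 5.35 in shscrambled. It had the largest difference of the 204 probe sets, -3.70 log2 units. All 3 shERRα values lay near background, so the size of the fold is not exact. The next 2 lowest differences in the run rested on uneven arrays. Probe set 8105262 measured 0.73, 1.26 and 0.24 in shERRα and 0.50, 0.50 and 9.55 in shscrambled, so that shscrambled replicate 3 alone set its difference of -2.77. Probe set 8105238 differed by -2.39 with overlapping groups. The highest differences were at 8105261 (0.85), 8105257 (0.82) and 8105232 (0.51), of which the first 2 were near background. In the RefSeq annotation 5 genes overlap ITGA1, among them PELO, which shares its start. Signal from such genes cannot be told apart from that of ITGA1 where a probe set is not named.

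**Figure D2:**
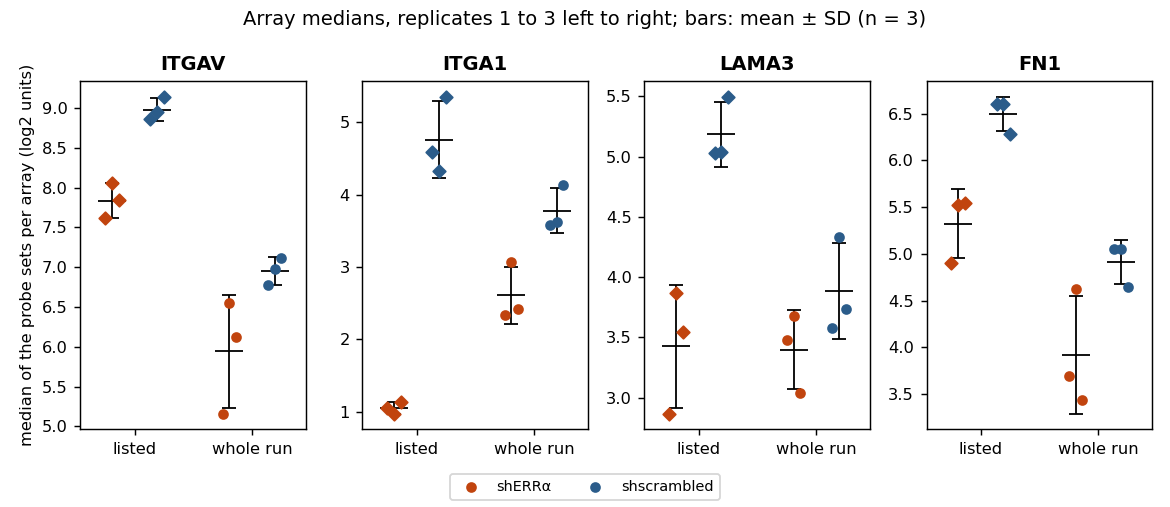
Median log2 signal per array (y axis) over the listed probe sets (diamonds) and over the whole run (circles) of each gene, with shERRα in orange and shscrambled in blue, replicates 1 to 3 from left to right; bars are mean ± SD (n = 3). The groups do not overlap except for the whole run of LAMA3; the y axes differ between genes.

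FN1, the fibronectin gene, was lower in shERRα at most of its probe sets. Its run median per array was 3.69, 4.63 and 3.43 log2 units in shERRα and 5.05, 5.06 and 4.64 in shscrambled. shERRα replicate 2 and shscrambled replicate 3 almost met, and without the listed probe set both had a run median of 4.59. The difference was -0.998 log2 units (SE 0.316, limma), with 313 of 19186 runs at or below it. Of 58 probe sets 52 were lower in shERRα, 24 of them at least 2-fold, and 14 did not overlap. Among all 257408 probe sets 50.3% were lower, 18294 at least 2-fold, and 8.39% did not overlap on the lower side. Of the 57 unlisted FN1 probe sets 13 did not overlap. With shERRα replicate 1 left out, 48 of the 58 were lower and 20 did not overlap, against 13.4% of all probe sets. The median of the 58 differences was -0.74.

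The listed FN1 probe set, 8058780, measured 4.90, 5.52 and 5.55 log2 units in shERRα and 6.60, 6.60 and 6.29 in shscrambled. The groups did not overlap, and the difference of -1.17 was far from the largest of the run. It was no longer past the authors' rule when any of the 6 arrays was left out, and without shERRα replicate 1 it was also under 2-fold, at -0.96. Lower differences were seen at 8058803 (-3.23), 8058815 (-2.68) and 8058781 (-2.65). At 8058803 the shERRα arrays measured 0.73, 0.66 and 4.03 and the shscrambled arrays 5.15, 5.36 and 4.59. Replicates 1 and 2 of shERRα were near background there, while replicate 3 was close to shscrambled. The highest differences were at 8058814 (1.20), 8058818 (0.95) and 8058823 (0.76), all with overlapping groups. ATIC and FN1-DT overlap FN1 in the RefSeq annotation.

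LAMA3, the laminin α chain gene, had more probe sets lower than higher in shERRα. The run median per array was 3.48, 3.68 and 3.04 log2 units in shERRα and 3.58, 4.34 and 3.74 in shscrambled. The groups overlapped, and the difference was -0.49 (SE 0.27, limma), with 2216 of 19186 runs at or below it. It was -0.26 without shscrambled replicate 2 and -0.31 without shERRα replicate 3. Of 78 probe sets, 53 were lower and 25 higher in shERRα, 16 did not overlap on the lower side and none on the higher side, and 18 were near background. Over all probe sets 50.3% were lower, and the shares without overlap were 8.39% on the lower side and 5.68% on the higher. Of the 75 unlisted LAMA3 probe sets 13 did not overlap on the lower side. When shERRα replicate 1 was left out, 57 of the 78 were lower and 23 did not overlap, against 13.4% of all probe sets. The median of the 78 differences was -0.28, nearer 0 than the difference of the run medians.

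The 3 listed LAMA3 probe sets all lie among the last 39 of the run. Probe set 8020622 measured 5.32, 4.59 and 5.06 log2 units in shERRα and 6.47, 6.59 and 6.58 in shscrambled. Probe set 8020612 measured 2.87, 3.87 and 3.54 in shERRα and 5.03, 5.04 and 5.50 in shscrambled. Probe set 8020600 measured 2.47, 2.54 and 2.05 in shERRα and 4.94, 4.71 and 3.87 in shscrambled. Their differences were -1.55, -1.76 and -2.15 log2 units, and the last had shERRα arrays close to background. The lowest differences of the run were at 8020555 (-2.78), 8020597 (-2.78) and 8020608 (-2.77). The highest were at 8020574 (1.31), 8020583 (1.01) and 8020604 (0.96).

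The run was split at its middle by identifier order, a summary chosen after its values were seen. In the first 39 probe sets of LAMA3, 20 were lower and 19 higher in shERRα, with a median difference of -0.03 log2 units and 2 without overlap. As a median per array the first 39 differed by -0.37, with overlapping groups. In the last 39, 33 were lower and 6 higher, with a median of -0.59 and 14 without overlap. All 3 listed probe sets are among the last 39 and were selected on this contrast, so they add to the 33 and the 14 by selection. Over all probe sets 8.39% did not overlap on the lower side. Near-background probe sets numbered 13 among the first 39 and 5 among the last 39, and their part in the contrast was not tested. The median of the last 39 was 3.48, 4.28 and 3.23 log2 units in shERRα and 4.76, 5.04 and 4.59 in shscrambled, and every shERRα array lay below every shscrambled array. LAMA3 is known to make a long and a short chain, and the short one, a chain of the laminin that anchors epithelial cells through hemidesmosomes, starts inside the gene. The files do not say where in LAMA3 a probe set lies. In the same split, the earlier and later probe sets of ITGAV had medians of the single differences of -1.03 and -1.18, those of ITGA1 -0.26 and -0.76, and those of FN1 -0.66 and -0.81. As medians per array the differences were -1.03 and -1.30 for ITGAV and -0.671 and -1.175 for ITGA1. For FN1 they were -1.28 and -0.73, the reverse order of its single differences. Whether the earlier and later probe sets differ was not tested.

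**Figure D3:**
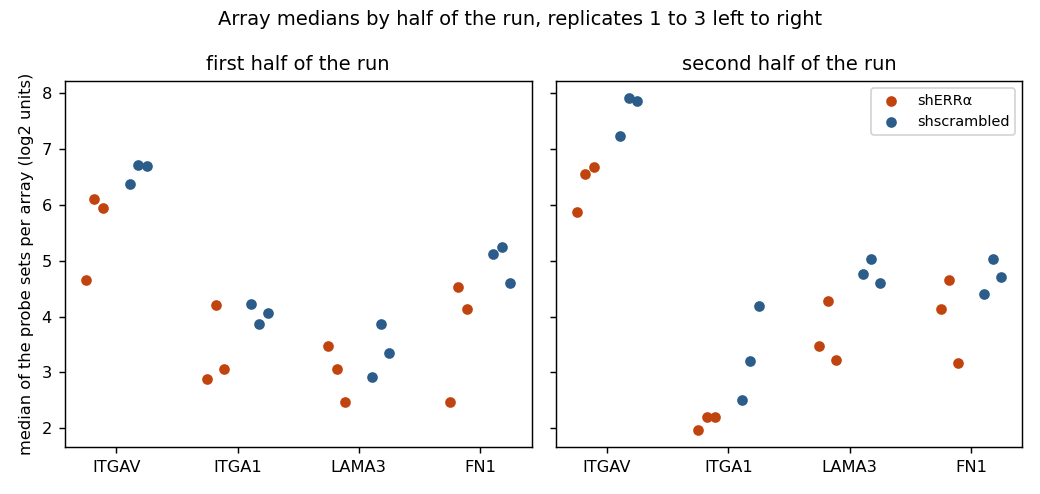
Median log2 signal per array (y axis) over the earlier (left panel) and the later (right panel) probe sets of each run in identifier order, with shERRα in orange and shscrambled in blue, replicates 1 to 3 from left to right. The LAMA3 groups overlap in the left panel and not in the right; those of ITGA1 do the same, those of FN1 the reverse, and those of ITGAV overlap in neither.

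Over the 4 runs, 163 of 204 probe sets were lower in shERRα, with a median difference of -0.63 log2 units, and 57 did not overlap on that side, against 8.39% of all probe sets. Among the 194 that the authors did not list, 153 were lower and 47 did not overlap on that side (24.2%). The 10 listed ones, selected on this contrast, are all among the 57. Over all probe sets the median difference was -0.005, and 50.3% were lower. Near background 24 of 39 were lower, where 43.3% of all probe sets at that level were. Above it 139 of 165 were lower, against 52.7% of all probe sets above it. Without shERRα replicate 1, 158 of the 204 were lower and 75 did not overlap. Among all 257408 probe sets 131773 were then lower, and 13.4% did not overlap on the lower side.

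**Figure D4:**
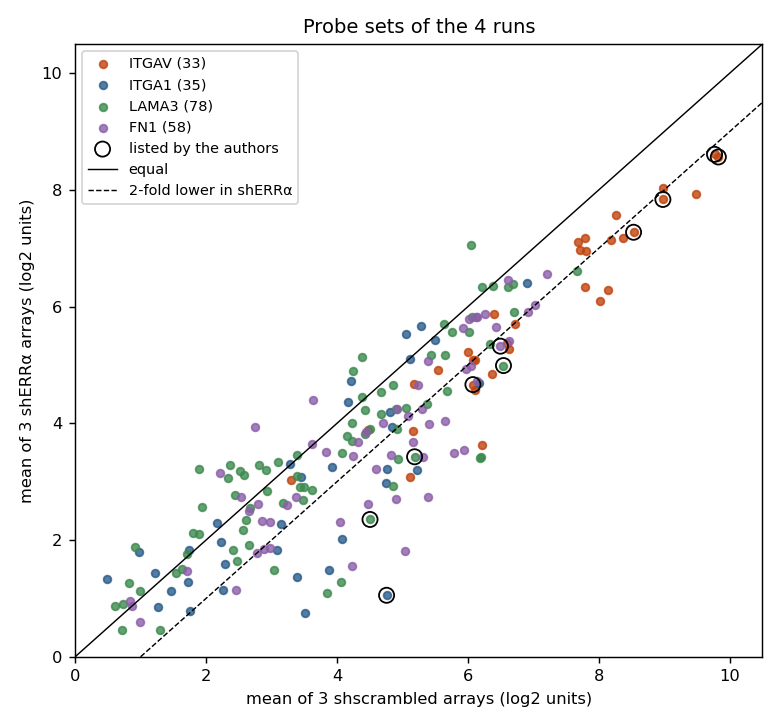
Mean log2 signal of the 3 shERRα arrays (y axis) against that of the 3 shscrambled arrays (x axis) for the 204 probe sets, coloured by gene, with the 10 listed ones circled. ITGAV points reach the highest signals and all lie below the solid line of equality; the dashed line marks 2-fold lower in shERRα.

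Near the limits of the authors' rule, ITGAV probe set 8046883 was 1.92-fold lower and so missed the fold. FN1 probe set 8058780 was just inside on the p side, at an equal-variance p of 0.00784, and ITGA1 probe set 8105251, 4.05-fold lower, just outside at 0.0121 (values of the rule itself, 3 arrays a group, not adjusted and not exact tests).

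Many member values were not unique to their probe set. On each array 156 to 182 of the 204 member values (76.5% to 89.2%) occurred in more than 100 probe sets of that array, against 33.5% to 48.3% of all values. The share was highest in shERRα replicate 1.

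Other adhesion and matrix genes can be named only where the authors list them. Of 151 genes in 11 lists, 41 were listed, 26 lower, 12 higher and 3 in both directions. In all, 1458 genes were listed. Their share of all genes on the array is not known, since unlisted probe sets carry no names. Genes with many probe sets also had more chances to be listed. Whether adhesion and matrix genes were listed more often than others was therefore not tested, here or list by list. Without the 4 genes above, 22 of 34 listed in 1 direction were lower (64.7%), against 65.0% of all listed genes. Levels below are medians over a gene's listed probe sets, and each gene was selected for its difference on these arrays. A gene had a group near background where the mean of either group was under 2.42 log2 units.

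Of 18 integrin α subunits, 5 were listed lower and 5 higher. ITGA3, a laminin receptor subunit of epithelia, averaged 6.13 ± 0.29 in shERRα and 7.21 ± 0.09 in shscrambled (log2 units, SD, n = 3 each), with a run difference of -1.01. ITGA5, the α subunit of the classical fibronectin receptor, averaged 7.12 ± 0.14 in shERRα and 6.02 ± 0.23 in shscrambled (log2 units, SD, n = 3 each), with a run difference of 0.49. ITGAE, whose product binds E-cadherin, averaged 6.87 ± 0.12 in shERRα and 5.48 ± 0.23 in shscrambled (log2 units, SD, n = 3 each), with a run difference of 0.41. Thus both signs occurred among subunits with clear signal. ITGA2B and ITGAX were listed lower, and ITGA10, ITGAD and ITGAM higher, each with a group near background and run differences between -0.27 and 0.45. Of 8 β subunits, ITGB8, a partner of the ITGAV product, was the only one listed, with 4.63 ± 0.18 in shERRα and 3.38 ± 0.20 in shscrambled (log2 units, SD, n = 3 each) and a run difference of 0.13.

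Of 12 laminin chains, 6 were listed lower and 1 higher. Besides LAMA3 the lower ones were LAMA4, LAMA5, LAMB2, LAMB4 and LAMC3, and LAMA1 was higher. LAMA1, LAMA4, LAMB4 and LAMC3 each had a group near background. LAMB2 averaged 4.11 ± 0.24 in shERRα and 5.57 ± 0.02 in shscrambled (log2 units, SD, n = 3 each), with a run difference of -0.68, and LAMA5 had a run difference of -0.42.

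Of the 14 basement membrane collagens and partners, COL4A4 and COL17A1 were listed lower, COL15A1 higher, and COL4A6 and COL7A1 in both directions. Of these, all but COL15A1 had a group near background. For COL4A6 and COL7A1 the median joins probe sets that differed in opposite directions, so this level describes no direction. Of 12 fibrillar and other collagens, COL1A2, COL6A1 and COL6A3 were listed lower and COL3A1 higher. COL1A2 and COL6A3 each had a group near background. COL6A1 averaged 6.30 ± 0.10 in shERRα and 7.61 ± 0.21 in shscrambled (log2 units, SD, n = 3 each), with a run difference of -0.59, while COL6A3 had a run difference of 0.05. Of 18 matrix ligands with fibronectin, FBLN5 and NPNT were lower beside FN1, and THBS2 higher. FBLN5 was near background in shERRα. NPNT encodes nephronectin, a basement membrane ligand of integrins, and averaged 3.32 ± 0.08 in shERRα and 4.88 ± 0.07 in shscrambled (log2 units, SD, n = 3 each), with a run difference of -1.47.

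The latent TGF-β complex is a cargo of αV integrins. Of its 8 genes 3 were listed, all lower: TGFB1, LTBP3 and LTBP4. LTBP4, which tethers the complex to the matrix, averaged 3.66 ± 0.32 in shERRα and 5.75 ± 0.42 in shscrambled (log2 units, SD, n = 3 each), with a run difference of -1.05. TGFB1 was near background in shERRα at its listed probe set and had a run difference of -1.11, and LTBP3 had one of -0.31. Of 29 focal adhesion genes, FYN and TNS1 were lower, TLN2 and TNS4 higher and PTK2B listed both ways. TNS1, TLN2 and PTK2B each had a group near background, where the median of PTK2B joins probe sets that differed in opposite directions. TNS4, a tensin that binds integrin tails, had 6 listed probe sets with a median of 7.34, 7.40 and 7.25 log2 units in shERRα and 6.11, 6.13 and 5.76 in shscrambled, and a run difference of 0.82. None of the 8 genes in the list of hemidesmosome and tetraspanin partners was listed by the authors; COL17A1, the collagen of hemidesmosomes, was counted above with the basement membrane. Of 14 matrix proteases only MMP14 was listed, lower with a run difference of -0.02, and of 10 other matrix receptors only CD44, lower with a run difference of -0.93.

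**Figure D5:**
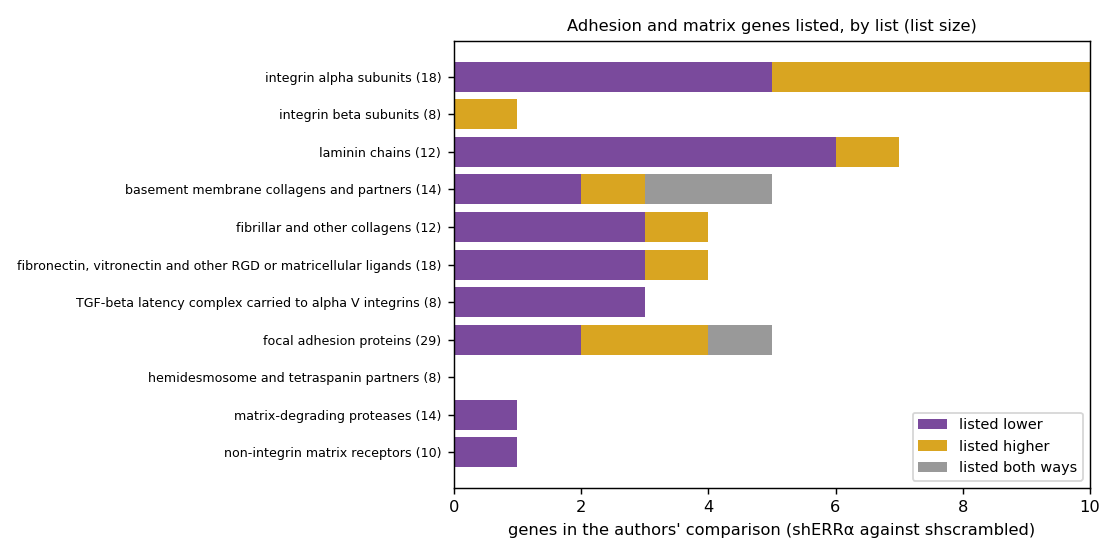
Number of genes in the authors' deposited comparison (x axis) for each list of adhesion and matrix genes (rows, list size in brackets), split into listed lower, listed higher and listed both ways in shERRα against shscrambled. The integrin α subunits are split 5 to 5, and the laminin chains 6 lower to 1 higher. Genes with a group near background are counted too.

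Cell type markers could likewise be checked only where listed. Of 10 colon epithelial markers CDH1, which encodes E-cadherin, was listed, lower at 7 probe sets, with 5.63 ± 0.55 in shERRα and 7.69 ± 0.03 in shscrambled (log2 units, SD, n = 3 each). Of 10 fibroblast markers 3 were listed (COL1A2 and COL6A3 lower, COL3A1 higher), of 6 endothelial ones KDR (higher), and of 7 leukocyte ones ITGAM (higher), each at a single probe set. Of these fibroblast, endothelial and leukocyte markers, all but COL3A1 had a group near background. The part of other cells in these values was not tested.

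Genes with the most similar pattern over the 6 arrays were sought among the 113 or 114 others with at least 3 distinct listed probe sets, by Pearson's correlation of the median of the listed probe sets. All of these genes were listed for a difference between the same 2 groups, so the values describe rank and no more. For ITGAV the closest were WDFY1, an endosomal protein (r = 0.998), SERPINB9, an inhibitor of granzyme B (r = 0.996), and MAL2, a membrane traffic protein of polarised epithelia (r = 0.994). For ITGA1 they were the adhesion receptor ADGRV1 (r = 0.994), the epithelial transcription factor GRHL2 (r = 0.986) and the ribosome assembly factor MDN1 (r = 0.985). For LAMA3 they were WDFY1 (r = 0.997), the microtubule-binding HOOK1 (r = 0.996) and the Polycomb protein PCGF5 (r = 0.994). For FN1 they were PLOD2, a collagen lysyl hydroxylase (r = 0.987), LIMCH1, an activator of non-muscle myosin (r = 0.986), and the lysosomal mannosidase MANBA (r = 0.980). All of these were lower in shERRα. PLOD2, closest to FN1, measured 5.93, 6.45 and 6.30 log2 units in shERRα and 7.61, 7.58 and 7.39 in shscrambled.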

How the data were processed

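The members, their runs and the gene lists were chosen with earlier results of these data known. Values are log2 RMA expression, normalised by the authors per the submitters' processing notes, with no version given; the sources used here give neither genome build nor array annotation. The deposited value table had lost its decimal marks, so each mark was restored from the length of the digit string, and 4.76% of 1544580 values fitted 2 readings. Such values took the one nearer the other values of the probe set, where its lead was at least 4 log2 units, or that of a string recurring at least 10 times and read one way in 99% of cases; 1079 probe sets were settled by such a string. Of 257430 probe sets 22 stayed undecided and were left out, none of them in the 4 runs, and 61 with only unsettled values were read as low. The reading gave all 2122 deposited fold ratios within 0.001 log2 units, and the deposited p-values within 1%; both are the authors', per the file headers.

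Of the 2122 listed probe sets, 1948 got a name from RefSeq by accession, 103 by symbol, 27 by an older symbol and 11 as given, and 33 stayed unnamed. A run is an unbroken series of identifiers and was summarised per array by its median; 19186 runs of at least 3 were fitted with limma 3.58.1 (lmFit, eBayes, R 4.3.3), with Benjamini-Hochberg adjustment, on all runs or probe sets. The code was tested on simulated data. The authors' rule was repeated with an equal-variance test. Named genes are the 4 members with every listed probe set and the 3 lowest and 3 highest differences of each run, ESRRA, listed members of the lists, and the 3 most similar genes. Alternatives were array weights, each array left out, the replicate number as a block, quantile normalisation, centring, the mean, a filter at the 25th percentile and unlisted probe sets only. Counts without shERRα replicate 1, and the split of runs at their middle, were chosen after seeing the data. With 3 arrays a group, the number of arrays limits the precision, and a p-value covers only spread among these arrays, which may be technical. Scipy was version 1.17.1.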

Additional observations from a re-analysis of the deposited data

How the results depend on the processing

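The run difference stayed negative for ITGAV, ITGA1, LAMA3 and FN1 under all 13 alternatives run for each, which says little since the members were chosen for it. Without each array in turn it ranged from -1.31 to -0.62 for ITGAV, -1.40 to -0.99 for ITGA1, -0.64 to -0.26 for LAMA3 and -1.35 to -0.76 for FN1; array weights, 0.321 for shERRα replicate 1, gave -0.66 for ITGAV. The mean per array moved ITGA1 to -0.73. The rule of the authors gave 2122 probe sets, 10 of them members. With limma's p in the rule these were 4198 and 19. At an adjusted p under 0.05, an equal-variance test and limma each gave 0 and 0. Without each array in turn there were 1290 to 2414 probe sets and 4 to 16 members. Member counts were 4 without shscrambled replicate 1 or 2, 5 without shscrambled replicate 3 and 16 without shERRα replicate 2. Such counts can include members that the authors did not list. Without shERRα replicate 2, 3 of 5 listed ITGAV probe sets and 2 of 3 listed LAMA3 probe sets stayed past the rule. The listed ITGA1 probe set stayed past it as well, and that of FN1 did not. Without shERRα replicate 1, chosen after seeing the data, ITGA1 probe sets without overlap numbered 9, against 5; those of the other 3 genes stayed within 1.5 times. The replicate numbers are shared by the groups, but deviations of same-numbered arrays correlated at only 0.049 to 0.084, so no pairing was assumed, although every array correlated best with its own number. With the replicate block the rule gave 1070 probe sets and 4 members. ITGAV had 2 of these 4, of which 1 was listed. ITGA1 and LAMA3 had 1 each, both listed, and FN1 had 0. The number of arrays, dim signal in ITGA1 and LAMA3, and the lack of names for unlisted probe sets limit all values.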
